A study of Mus musculus with 2 samples.

Results

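Genes of ion channels were examined in mouse mammary luminal cells sorted by fluorescence-activated cell sorting. The genes were taken by symbol: the potassium channel genes (Kcn), sodium channel genes (Scn), calcium channel genes (Cacn), transient receptor potential genes of the canonical, melastatin and vanilloid groups (Trpc, Trpm, Trpv), chloride channel genes (Clcn, Clic), anoctamins (Ano), aquaporins (Aqp) and Cftr. The rule took 164 of the 16906 genes in the deposited table. It also took genes that are no channels, such as auxiliary subunits, the TRPC4-associated protein gene Trpc4ap and the antisense RNA Trpc5os.

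The control library (Ctrl) was made from miR-200c/141-flox/flox mice, whose miR-200c/141 cluster is flanked by loxP sites and which carry no Cre. The knockout library (CKO) was made from K8-CreERT2;miR-200c/141-flox/flox mice, in which a Cre recombinase switched on by tamoxifen is driven by the keratin 8 promoter of luminal cells. All mice were C57BL/6, 8 weeks old and given tamoxifen, so Ctrl received the drug too, but only CKO carried the Cre, and the effects of Cre and of the deletion cannot be told apart. One field of the labels puts the harvest 4 weeks after tamoxifen and another 3 days after it. Each group had 1 library from about 20000 cells, the number of mice behind it is not stated, so the spread between animals is unknown for every difference below.

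Ion channels are membrane proteins that let selected ions cross along their electrochemical gradient. In secretory epithelia, potassium channels set the membrane voltage that drives chloride through apical channels, and water follows through aquaporins. The mammary luminal layer moves ions and water in this way when it makes milk. Many channels are assembled from pore-forming subunits and from auxiliary subunits that carry no pore but change how the pore opens or reaches the membrane.

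Levels are in FPKM, the fragments per kilobase of transcript, scaled to the size of each library, so they can be compared between genes. A gene counted as measured when the mean of both libraries was at least 1 FPKM. It was called higher or lower in CKO when the ratio of FPKM + 0.5 was at least 1.5-fold and a 95% counting interval excluded a ratio of 1. That interval was computed from the estimated reads, about 12500000 in Ctrl and 11400000 in CKO, without the added 0.5. It covers counting error only, and PCR copies of 1 molecule are counted as separate reads. All log2 ratios are CKO over Ctrl with 0.5 FPKM added.

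The luminal layer expressed a limited part of the channel repertoire, and most of what it expressed was at similar levels in both libraries. Of the 164 genes, 47 were measured and 117 had a mean under 1 FPKM. Of the 47, 3 were called higher in CKO, namely Kcnip3, Trpc6 and Aqp1. Another 6 were called lower, among them Kcnh6, Kcns3, Cacna2d1, Kcne3 and Kcnh3. The other 38 lay within 1.5-fold. Over all 11667 measured genes of the table, 2.29% were called higher and 3.04% lower by the same rule, against 6.38% and 12.8% of the measured channel genes. The median log2 ratio of the 47 was -0.11, beside -0.03 over all measured genes, and 30 of the 47 ratios were below 0 (63.8%, beside 54.8% of all measured genes). Among the 28 channel genes with a mean of at least 5 FPKM, 2 were higher and 2 lower (7.14% each), where the shares of all genes at that level were 1.66% and 1.36%. With no minimum level, 4 of the 164 were higher (2.44%) and 10 lower (6.1%), where the shares of all 16906 genes were 2.32% and 3.1%. At 2-fold, 0 of the 47 were higher and 2 lower (Kcnh6 and Kcns3), and the shares of all measured genes were 0.754% and 0.557%.

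**Figure D1:**
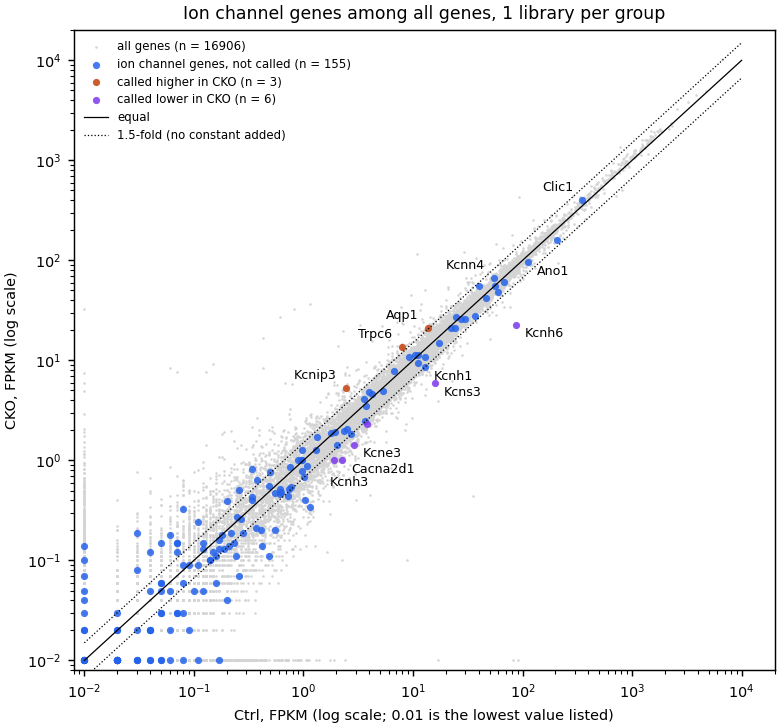
FPKM in Ctrl (x axis) and CKO (y axis), both on log scales, for all 16906 genes (grey) and the 164 ion channel genes (coloured by call, 1 library per group). Most channel genes with a mean of at least 1 FPKM lie near the line of equality, while many weaker ones lie off it. Kcnh6 (86.81 and 22.71 FPKM) stands farthest from that line among the channel genes above 10 FPKM in either library.

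The deleted cluster encodes 2 microRNAs, short RNAs that pair through their seed with messenger RNAs and reduce their stability and translation. Their mature sequences are shown first because the seeds, bases 2 to 8 in capitals, define the sites sought in the channel genes. The sequences are from RefSeq (GRCm38.p6), and both lie on the minus strand of chromosome 6, miR-200c-3p at 124718324 to 124718346 and miR-141-3p at 124717917 to 124717938.
mmu-miR-200c-3p: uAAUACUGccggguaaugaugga
mmu-miR-141-3p: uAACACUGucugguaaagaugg

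The DNA matches of these seeds, CAGTATT and CAGTGTT, were sought on the transcript strand of the longest 3' UTR of each protein-coding gene (GENCODE M21 basic set, GRCm38). A match is a description of letters and not a tested site. Of the 47 measured channel genes, 13 (27.7%) held at least 1 match, 8 of them for miR-200c-3p and 8 for miR-141-3p, with some genes in both counts. When the transcript with the longest coding sequence was used in place of the one with the longest UTR, a choice made after seeing the data, 8 of 43 (18.6%) held a match, beside 27.4% of all measured genes. Over all 11432 measured genes with a UTR the share was 29.7%, and the median UTR was 1380 bases long in the channel genes and 1149 in all genes. The log2 ratios had a median of -0.19 over the 13 channel genes that hold a match and -0.06 over the 34 that hold none. In all measured genes these medians were -0.08 and -0.01.

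Neither Kcnh6 (UTR of 485 bases) nor Kcns3 (1019 bases), the genes with the largest ratios, held a match, and the same was found for Kcnip3, Aqp1, Kcne3 and Kcnh3. Of the 9 called genes 2 held one, 1 called higher and 1 called lower, and the higher one was Trpc6, with a match for miR-200c-3p. The Trpc6 match, in exon 3 of 3, belongs to a transcript with a coding sequence of 1218 bases, and the transcript with the longest coding sequence (2790 bases) held none. On the longest coding transcripts 0 of the 9 called genes held a match. Over all measured genes, 267 were called higher and 355 lower. Of these, with any that lack an annotated UTR counted as holding none, 39 and 104 held a match in the longest UTR. On the longest coding transcripts 137 of them did. Among the abundant genes, Clic4 (log2 ratio -0.36) held a match for miR-200c-3p and Kcnk5 (-0.39) one for miR-141-3p. Other abundant genes with a match had ratios nearer to equality. They were Ano6 (-0.15, matches for both microRNAs), Clcn3 and Clcn4 (-0.19 each, miR-141-3p) and Clic6 (-0.21, miR-200c-3p). On the longest coding transcripts Ano6 and Clcn3 held no match, while Clic4, Kcnk5, Clcn4 and Clic6 kept theirs. The sites of Trpc6, Clic4 and Kcnk5 are shown 5′ to 3′ on the transcript strand with the match in capitals. These sites let the letters around a match be compared between a gene called higher and a pair within 1.5-fold. They lie at chr9:8627020-8627048 (plus strand), chr4:135216921-135216949 (minus) and chr14:20141204-20141232 (minus) of GRCm38.
Trpc6: gaatgaagtcaCAGTATTtcagattccac
Clic4: acactcctgagCAGTATTattctaaactc
Kcnk5: gctgagttcacCAGTGTTaatgggcaacg

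Kcnh6 encodes a voltage-gated potassium channel of the ether-a-go-go-related (ERG) group, whose members open slowly and help set the resting voltage and the firing of excitable cells. The gene, number 192775 of Entrez, spans bases 106008044 to 106035595 of chromosome 11. Its level was 86.81 FPKM in Ctrl and 22.71 in CKO, a log2 ratio of -1.91 with a counting interval of -2.04 to -1.83. About 3886 reads in Ctrl and 931 in CKO lay behind these values, so counting error was small beside the difference. The authors' deposited table calls Kcnh6 down with a false discovery rate of 0, from a test that compares these libraries and not the conditions.

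In Ctrl, Kcnh6 was the pore-forming potassium channel gene with the highest FPKM of the 59 in the table, and in CKO it was the fourth. It held 32.6% of the summed FPKM of these genes in Ctrl and 11.9% in CKO. That sum was 266 FPKM in Ctrl and 190.6 in CKO, and without Kcnh6 it was 179.2 and 167.9. Most of the difference in the summed level of potassium channel transcripts therefore lay in this one gene.

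**Figure D2:**
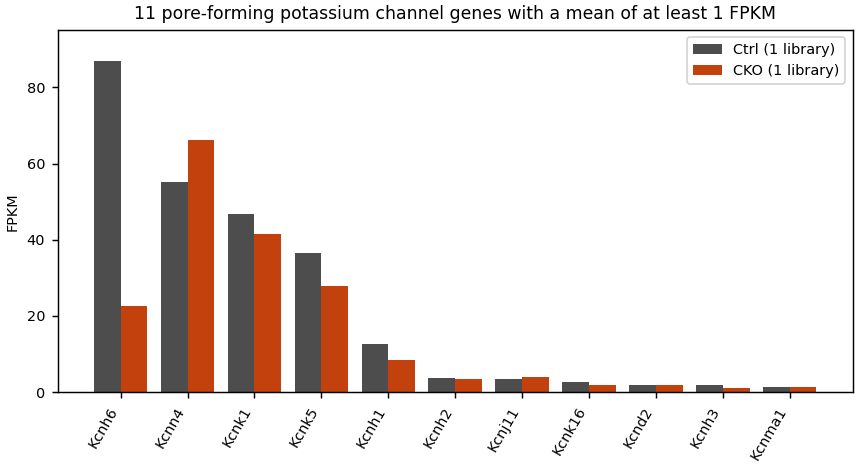
FPKM in Ctrl (grey bars) and CKO (orange bars) of 11 pore-forming potassium channel genes with a mean of at least 1 FPKM, 1 library per group and no error bars. Kcnh6 is the highest in Ctrl at 86.81 FPKM, and Kcnn4 in CKO at 66.16.

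The genes around Kcnh6 did not share its difference. Of its measured neighbours within 100 kb, 6 in all, 0 were called, where 2.29% of all measured genes were called higher and 3.04% lower. Ace, the angiotensin-converting enzyme gene that lies next to it, had 6.45 FPKM in Ctrl and 6.9 in CKO. Dcaf7, on its other side, was at 23.0 and 19.5 FPKM, and Cyb561, a cytochrome gene, at 106.24 and 97.28. The log2 ratios of the 6 ran from -0.33 (Tanc2) to 0.09 (Ace).

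The other genes of the Kcnh family, which also holds the ether-a-go-go (EAG) and ether-a-go-go-like (ELK) channels, were lower in CKO or near equality. Kcnh1, an EAG channel gene, had 12.75 FPKM in Ctrl and 8.5 in CKO, or -0.56 as a log2 ratio (interval -0.72 to -0.45). At 1.47-fold it lay just under the 1.5-fold limit and was not called. Kcnh3, an ELK channel gene, was at 1.89 and 1.0 FPKM, or -0.67 as a log2 ratio (interval -1.47 to -0.39). At 1.59-fold Kcnh3 lay just past the limit. With 1 FPKM added in place of 0.5 its log2 ratio was -0.53 and it was not called. The deposited p-value of Kcnh3 was matched by 90 reads in Ctrl and 45 in CKO.

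Kcnh2, the gene of the ERG channel best known from the heart, was at 3.73 and 3.49 FPKM, with an interval of -0.41 to 0.22. Of these ERG genes, Kcnh6 was thus 3.76-fold lower in CKO while Kcnh2 lay near equality. The remaining ERG gene, Kcnh7, was at 0.98 and 1.0 FPKM from 74 and 69 reads. Kcnh4, Kcnh5 and Kcnh8 were at 0.17 FPKM or less in each library. All 4 measured Kcnh genes had ratios below 0, and 2 of them were called lower.

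Kcns3 encodes a modifier subunit (Kv9.3) that forms no channel alone and changes the currents of Kv2 channels. Kcns3 had 15.86 FPKM in Ctrl and 5.9 in CKO, or -1.35 as a log2 ratio (interval -1.72 to -1.14) from about 400 and 136 reads. The authors' deposited table calls Kcns3 down, with a false discovery rate of 7.3e-23. It was the only one of 7 modifier genes in the set with a mean of at least 1 FPKM.

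The auxiliary genes of voltage-gated potassium channels went both ways. Kcne3 encodes a single-span subunit that holds the epithelial channel encoded by Kcnq1 open. Kcne3 had 2.9 FPKM in Ctrl and 1.44 in CKO, or -0.81 as a log2 ratio (interval -1.88 to -0.25), from only about 45 and 20 reads. The authors' deposited table does not call Kcne3. Kcnq1 itself was at 0.76 and 0.86 FPKM, with an interval of -0.62 to 0.98 that holds a ratio of 1. Of the 3 measured neighbours of Kcne3 within 100 kb on chromosome 7, 2 were also called lower, where 3.04% of all measured genes were. Lipt2, a lipoic acid transferase gene, was at 6.32 and 3.73 FPKM, and Pgm2l1, a sugar phosphate enzyme gene, at 2.44 and 1.35. Their log2 ratios were -0.69 (interval -1.27 to -0.26) and -0.67 (interval -1.17 to -0.55), not far past the 1.5-fold limit. Whether the position of these genes plays a part was not tested.

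Among the measured genes Kcnip3 was the one with the largest ratio toward CKO. It encodes a calcium-binding protein, also called calsenilin or DREAM, that binds Kv4 channels and has been described as a transcriptional repressor. Kcnip3 had 2.43 FPKM in Ctrl and 5.25 in CKO, or 0.97 as a log2 ratio (interval 0.73 to 1.5), and 86 and 172 whole reads matched its deposited p-value. The authors' deposited table calls Kcnip3 up, with a false discovery rate of 2.5e-08, the only channel gene it calls in that direction. Its Kv4 partner gene Kcnd2 was level at 1.95 and 1.94 FPKM. The beta subunit gene Kcnab3, at 2.48 and 2.07 FPKM, lay within 1.5-fold.

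The other potassium channels of the luminal cells were carried by a few genes, all within 1.5-fold. Kcnn4 encodes the intermediate-conductance calcium-activated channel (KCa3.1) of epithelia and blood cells. Kcnn4 had 55.26 FPKM in Ctrl and 66.16 in CKO, or 0.26 as a log2 ratio (interval 0.15 to 0.37), and it led the potassium channel genes in CKO. Kcnma1, the large-conductance calcium-activated channel gene, was at 1.31 and 1.28 FPKM, and Kcnn1, a small-conductance one, at 0.95 and 1.01.

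The two-pore-domain genes, which encode background potassium channels, had 3 measured members of 12, and all 3 ratios were below 0. Kcnk1 (TWIK-1) was at 46.87 and 41.63 FPKM, and its interval of -0.29 to -0.06 excluded a ratio of 1 although the ratio stayed under 1.5-fold. Kcnk5 (TASK-2), a channel gated by alkaline pH, was at 36.5 and 27.82 FPKM with an interval of -0.51 to -0.28. Kcnk16 was at 2.71 and 1.84 FPKM with an interval of -1.44 to 0.34. Among 12 inward-rectifier genes, only Kcnj11, a pore subunit of ATP-sensitive potassium channels, was measured, at 3.58 and 4.11 FPKM. Kcnj15 and Kcnj14 followed it, at 0.34 and 0.82 FPKM and at 0.34 and 0.43.

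**Figure D3:**
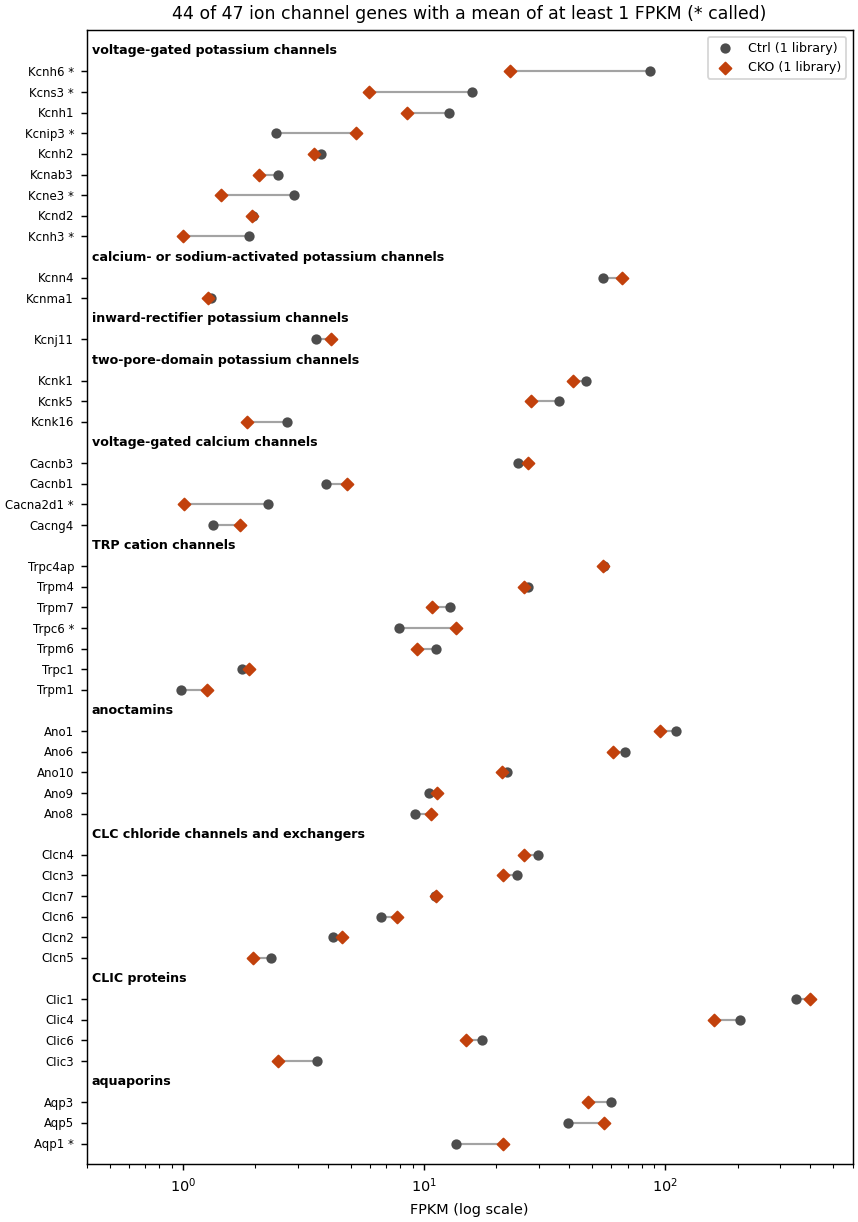
FPKM (log scale) in Ctrl (grey circles) and CKO (orange diamonds) of 44 of the 47 measured ion channel genes, grouped by class, 1 library per group; an asterisk marks a called gene. Long bars join the libraries for Kcnh6, Kcns3, Kcne3, Kcnh3, Kcnip3, Cacna2d1 and Trpc6, while the CLC and anoctamin genes have short ones.

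Voltage-gated calcium channels were represented by auxiliary subunits. None of the 10 calcium channel pore genes (Cacna1) reached a mean of 1 FPKM, and their summed level was 2 FPKM in Ctrl and 1.87 in CKO. The highest, Cacna1a and Cacna1d, were at 0.63 and 0.61 FPKM in Ctrl. By contrast Cacnb3, the gene of a beta subunit that brings the pore to the membrane, was at 24.67 and 27.07 FPKM. Cacnb1 was at 3.93 and 4.79 FPKM, and Cacng4 at 1.33 and 1.73.

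Cacna2d1, the gene of the alpha2-delta subunit that gabapentin binds, had 2.26 FPKM in Ctrl and 1.01 in CKO. Its log2 ratio was -0.87 (interval -1.88 to -0.54), from about 70 and 28 reads. It is not called in the authors' deposited table. Its FPKM and its deposited p-value differ: the read ratio that p-value implies is -0.75 (log2), smaller than the -1.16 that the authors' deposited table gives from FPKM.

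Among the transient receptor potential genes, which encode cation channels that respond to lipids, heat, touch or calcium, 7 of 17 were measured. Trpc6, a channel opened by diacylglycerol, was the one called. Trpc6 had 7.87 FPKM in Ctrl and 13.64 in CKO, or 0.76 as a log2 ratio (interval 0.59 to 1), from about 317 and 503 reads. The related Trpc1 was at 1.77 and 1.89 FPKM. Trpc4ap, whose product binds TRPC4 and is no channel, had the highest level in the group, at 56.04 and 55.55 FPKM.

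Of 6 melastatin genes 4 were measured and 0 called. Trpm4, a sodium-conducting channel gated by calcium, was at 27.16 and 26.02 FPKM. The channel kinases of magnesium uptake, Trpm7 and Trpm6, were at 12.80 and 10.82 FPKM and at 11.23 and 9.34 FPKM, with log2 ratios of -0.23 and -0.25. The intervals of both excluded a ratio of 1. All 6 vanilloid genes (Trpv) had a mean under 1 FPKM, including the epithelial calcium entry genes Trpv5, at 0.05 FPKM and the lowest listed value, and Trpv6, at 0.11 and 0.09.

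Apart from the CLIC genes, the chloride channel gene with the highest level was Ano1, and 0 of the measured anoctamin and CLC genes were called. Ano1 encodes a calcium-activated chloride channel of secretory epithelia. Ano1 had 111.53 FPKM in Ctrl and 95.54 in CKO, or -0.22 as a log2 ratio (interval -0.28 to -0.17). Ano6, the gene of a calcium-activated lipid scramblase, was at 68.12 and 61.18 FPKM, and Ano10 at 22.1 and 21.15. Cftr, the cAMP-regulated chloride channel gene, was at 0.37 and 0.21 FPKM from 29 and 15 reads, and its interval of -1.83 to 0.12 holds a ratio of 1.

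Of the CLC genes 6 of 9 were measured and 0 called, with log2 ratios from -0.21 to 0.21. The endosomal and lysosomal chloride-proton exchanger genes Clcn4, Clcn3 and Clcn7 were at 29.86 and 26.09, 24.35 and 21.32, and 11.13 and 11.27 FPKM. The plasma membrane channel gene Clcn2 was at 4.21 and 4.59 FPKM. The CLIC genes, whose products are mostly soluble proteins of debated channel function, included the most abundant transcripts of the whole set. Clic1 was at 348.57 and 400.22 FPKM and Clic4 at 204.73 and 159.47, with log2 ratios of 0.20 and -0.36 whose intervals both excluded a ratio of 1. Clic6 was at 17.39 and 14.98 FPKM, and Clic3 at 3.62 and 2.48. At 1.38-fold Clic3 was under the limit, and its interval of -1.34 to 0.28 holds a ratio of 1.

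Water channel genes went in different directions. Aqp1, a water channel common in vessel walls, had 13.61 FPKM in Ctrl and 21.24 in CKO, or 0.62 as a log2 ratio (interval 0.47 to 0.81). At 1.54-fold Aqp1 was just past the limit. Aqp5, the apical water channel of glandular epithelia, was at 39.79 and 55.76 FPKM, or 0.48 as a log2 ratio (interval 0.35 to 0.63). At 1.4-fold Aqp5 was just under the limit and was not called. Aqp3, a basolateral channel for water and glycerol, lay the other way at 59.79 and 48.18 FPKM, with an interval of -0.43 to -0.19. The 5 other aquaporin genes had means under 1 FPKM.

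**Figure D4:**
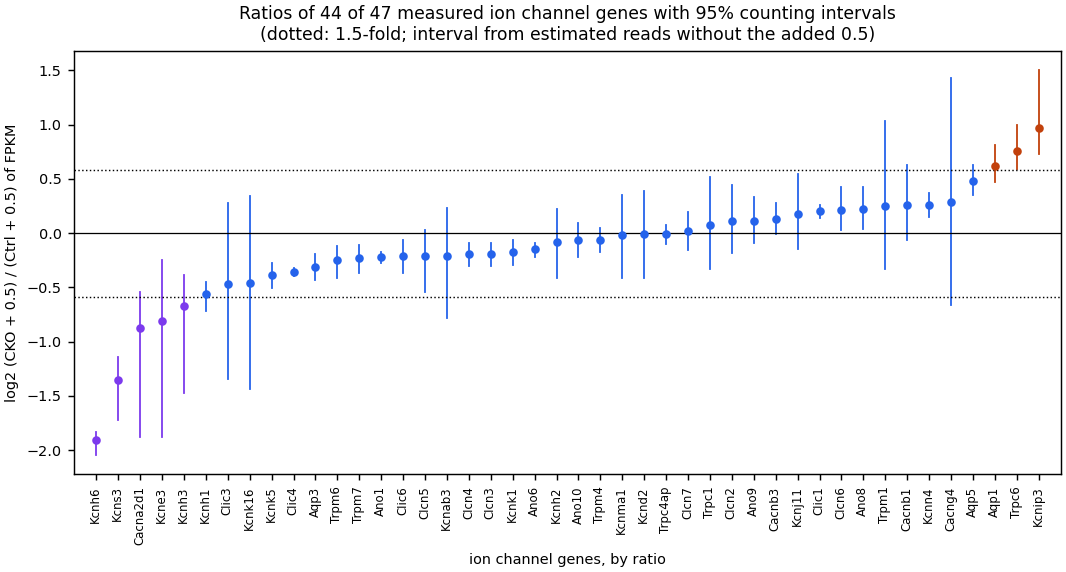
The log2 ratio of FPKM + 0.5, CKO over Ctrl, of 44 of the 47 measured ion channel genes in order of the ratio; vertical lines are 95% counting intervals from estimated reads without the added 0.5, and dotted lines mark 1.5-fold. Kcnh6 (-1.91) and Kcns3 (-1.35) lie lowest and Kcnip3 (0.97) highest, and the intervals of weakly expressed genes such as Cacng4 are wide.

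Luminal markers of both kinds were present and of similar summed level, with single genes called in each direction, while most basal myoepithelial markers were called higher in CKO. In bulk RNA, more cells of a type and more RNA per cell cannot be told apart. Of 9 measured basal markers 7 were called higher and 1 lower, and the summed level of the 10 listed was 160.6 FPKM in Ctrl and 293.6 in CKO. Krt14, a keratin gene of basal cells, had 44.49 FPKM in Ctrl and 90.79 in CKO. Trp63, a transcription factor gene of basal cells, lay the other way, at 2.96 and 1.05 FPKM. The sums were 962.3 and 1025 FPKM over 10 hormone-sensing luminal markers and 3467 and 3447 over 10 progenitor and alveolar markers. Each luminal list had 1 gene called higher and 1 called lower. Among hormone-sensing markers Ly6a was at 138.17 and 220.18 FPKM and Prom1 at 48.96 and 28.63. Among progenitor and alveolar markers Lif was at 47.36 and 72.08 FPKM and Trf at 715.71 and 444.01. Of 6 endothelial markers 0 were called, and their sum was 32.47 and 35.12 FPKM. Of 7 measured myeloid markers 1, Cd74, was called higher, with sums of 35.97 and 56.37 FPKM over 8 listed genes. Of 3 measured fibroblast markers 0 were called, with sums of 36.16 and 38.32 FPKM over 5. Most of each sum was Dcn, at 25.57 and 30.74 FPKM, and the other listed fibroblast markers had ratios below 0. Among these, Lum (1.16 and 0.38 FPKM) and Pdgfra (1.05 and 0.31) had means under 1 FPKM and intervals that excluded a ratio of 1. Lymphocyte markers had 0 of 6 measured. Muscle markers had 1 measured of 5, nerve markers 2 of 6 and adipocyte markers 1 of 3 in the table, with 0 called in each. The 7 basal markers called higher lay in the same direction as Trpc6, Aqp1 and Kcnip3, and Trp63 in that of Kcnh6 and Kcns3. The part of these markers in the results was not tested.

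Other genes of ion transport, from lists of channels, pumps and regulators outside the symbol rule, were mostly within 1.5-fold. Of 38 measured other channel genes, 0 were higher and 2 lower, with a median log2 ratio of -0.03. Over all measured genes 2.29% were called higher and 3.04% lower. Both lower genes encode subunits of the chloride-conducting GABA-A receptor. Gabre had 2.97 FPKM in Ctrl and 0.73 in CKO, with an interval of -2.85 to -1.27. Gabrp, a known luminal progenitor transcript, was at 1.48 and 0.82 FPKM, and at 1.5-fold it lay on the limit. The most abundant were the mitochondrial porin gene Vdac1 at 129.8 and 137.61 FPKM, the touch-sensitive channel gene Piezo1 at 90.83 and 85.43, and Vdac2 at 74.25 and 88.13.

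Of 22 measured pump and cation-chloride transporter genes, 0 were higher and 2 lower, and the median log2 ratio was -0.09. The shares of all measured genes were 2.29% higher and 3.04% lower. The chloride-loading cotransporter gene Slc12a2 was at 348.92 and 368.72 FPKM, and the pump subunit gene Fxyd3 at 317.51 and 372.01. Atp2a3, a calcium pump of the endoplasmic reticulum, was called lower at 8.46 and 5.2 FPKM, and so was Slc12a8 at 1.53 and 0.84. At 1.51-fold Slc12a8 was just past the limit.

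Of 23 measured channel regulators, 2 were higher and 0 lower, and the median log2 ratio was -0.03. Beside this, 2.29% of all measured genes were called higher and 3.04% lower. Clca1, of a family of secreted regulators of calcium-activated chloride channels, had 2.23 FPKM in Ctrl and 5.05 in CKO. Cav1, the caveolin gene, was at 14.54 and 22.19 FPKM and, at 1.51-fold, just past the limit. The family member Clca3a2 was the most abundant regulator, at 370.87 and 261.38 FPKM, and stayed within 1.5-fold with a log2 ratio of -0.50. The kinase gene Sgk1, which raises channel number at the membrane, was at 279.64 and 324.37 FPKM, and the calmodulin gene Calm2 at 217.25 and 256.2.

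Most genes of the set were too weakly expressed to compare. For 106 of the 117 genes under the mean of 1 FPKM, exactly 1 pair of whole read numbers near the FPKM returned the deposited p-value. Of these 106, 63 had 10 or fewer reads in both libraries together. The 95% interval of the read ratio excluded 1 for 6 of the 106, without allowance for their number. The same share over all weak genes was not computed, so these 6 cannot be set against a background. The interval lay toward CKO for Kcnj15 (18 and 39 reads), Cacna1g (20 and 35) and Scn7a (35 and 53). It lay toward Ctrl for Kcnn3 (47 and 10 reads), Kcnj16 (19 and 5) and Kcnj2 (18 and 4). These are potassium channel genes other than Cacna1g, a low-voltage calcium channel gene, and Scn7a, a sodium channel gene. The authors' deposited table calls Kcnn3 and Ano4 down, with false discovery rates of 3.28e-05 and 7.42e-06, beside its calls of Kcnh6, Kcns3 and Kcnip3, and it calls none of the other 159 genes. Ano4 was at 1.14 and 0.34 FPKM, with a mean below the minimum used here.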

How the data were processed

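RNA sequencing of 2 libraries was analysed. The submitters' processing notes name HISAT, Bowtie2, RSEM and mm10, and no versions or strand setting are given in the sources used here, so reads from overlapping antisense genes cannot be told apart. The authors deposited expression values per gene as FPKM, rounded to 2 decimals with 0.01 as the lowest value. Per the file headers these columns have no unit: FPKM was inferred, since values times kilobases sum to 999609 (Ctrl) and 999909 (CKO). The deposited log2 fold change is the authors' ratio of these columns. The deposited p-value and false discovery rate are the authors' test of 1 library against the other.

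Read totals were estimated by fitting the deposited p-values of 12229 genes. Log2 ratios used FPKM + 0.5, with exact conditional binomial (Clopper-Pearson) intervals at 95% on estimated reads. Whole reads were sought within 3% and the rounding of FPKM, among at most 200 pairs. With 1 library per group no test was possible. Scripts (Python 3.11.15, scipy 1.17.1) were tested on simulated data. All 164 identifiers matched RefSeq GRCm38.p6. The members and lists were chosen with earlier results of these data known. Named are the called genes, the 3 most abundant per class, the 4 uncalled extremes above 5 FPKM and those nearest to 1.5-fold, and, of other lists, the called and most abundant genes. Partner genes, neighbours, Trpv5, Trpv6, Cftr and other weak genes were chosen after their values were seen. Some genes and 1 site are counted but not reported here.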

Additional observations from a re-analysis of the deposited data

How the results depend on the processing

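The 3 higher calls became 0 at 2-fold and were 2, without Kcnip3, at a mean of at least 5 FPKM. The 6 lower calls became 2 (Kcnh6 and Kcns3) at 2-fold and 2 at a mean of at least 5 FPKM. With no minimum they became 10, with Ano4, Kcnj8 and Kcnn3 among those added, where the share of all 16906 genes called lower was 3.1% and of the 164 channel genes 6.1%. With 1 FPKM added 4 were lower, and Kcnh3 was among the calls lost. With read ratios implied by the deposited p-values 7 were lower, Kcnh1 being added; the p-value of Kcnh6 is 0 and could not be inverted, so its FPKM ratio was kept. For 6 of 46 measured genes the implied ratio differed from the FPKM ratio by over 0.1 on the log2 scale. With 0.1 FPKM added, and with centring on the median of all genes, the 9 calls held. On the transcripts with the longest coding sequence, an alternative chosen after seeing the data, the measured channel genes with a seed match fell from 13 to 8 and the called ones from 2 to 0. No paired analysis was possible because each group has 1 library. Differences of genes with about 10 reads or fewer were not detectable at this depth.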
